A study of Mus musculus with 9 samples.

Results

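The genes of the transforming growth factor beta (TGF-beta) pathway were followed in the back skin of male BALB/c mice. The 10 genes were chosen by symbol: the ligands Tgfb1, Tgfb2 and Tgfb3, the receptors Tgfbr1, Tgfbr2 and Tgfbr3, the intracellular Smad2, Smad3 and Smad7, and the responsive matrix gene Postn. All 10 were found among the 29205 genes of the table, and all 10 passed the filter on low counts in every comparison. RNA-seq was done on 3 groups with 3 libraries each, 9 libraries in all. Mice were 6 to 8 weeks old, were fed for 7 days before the experiment, and had their backs shaved and depilated in every group, the control included. The control group received nothing further and is labelled blank. The IMQ group had 62.5 mg of 5% imiquimod cream spread on the back each day for 5 days. The LYS-High group had the same cream and also Longkui Yinxiao soup (LYS), a herbal decoction, which per the methods of the study was given by gavage at the higher of its doses. Skin was taken on day 13 in all groups. Imiquimod is a Toll-like receptor agonist whose cream gives psoriasis-like lesions on mouse skin. LYS was given only to mice that also had the cream, so its effect on untreated skin was not measured.

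TGF-beta ligands are secreted in a latent form, held in the matrix by latent TGF-beta binding proteins, and have to be released before they can bind. The released dimer brings together the type II receptor (TGFBR2) and the type I receptor (TGFBR1), helped by the co-receptor betaglycan (TGFBR3). TGFBR1 then phosphorylates SMAD2 and SMAD3, which enter the nucleus with SMAD4, while SMAD7 is induced by the pathway and blocks the type I receptor. In skin the pathway is known for restraining keratinocyte growth and for driving fibroblasts to make matrix.

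The stretches of DNA just before the transcription start are shown for 4 of the members that moved differently, because these are the sequences next to the starts from which the RNA is made. They are the 250 bases upstream of the RefSeq start on GRCm38.p6, 5′ to 3′ on the strand of the gene. Capitals mark CAGAC or its reverse complement GTCTG, the short element that SMAD3 and SMAD4 are known to bind. Tgfb1, on the plus strand at chr7:25686752-25687001, was not called lower in IMQ skin. Its LYS-High values were above those of both other groups, a difference that edgeR called against control but not against IMQ. Tgfb2, on the minus strand at chr1:186705990-186706239, and Tgfbr2, on the minus strand at chr9:116175364-116175613, were lower in IMQ skin, as was Postn, on the plus strand at chr3:54360857-54361106, before the later of its RefSeq starts.
Tgfb1: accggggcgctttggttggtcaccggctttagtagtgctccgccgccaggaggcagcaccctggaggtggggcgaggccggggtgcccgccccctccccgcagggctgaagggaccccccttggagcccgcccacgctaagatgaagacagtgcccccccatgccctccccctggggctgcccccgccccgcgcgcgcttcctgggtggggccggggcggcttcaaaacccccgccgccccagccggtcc
Tgfb2: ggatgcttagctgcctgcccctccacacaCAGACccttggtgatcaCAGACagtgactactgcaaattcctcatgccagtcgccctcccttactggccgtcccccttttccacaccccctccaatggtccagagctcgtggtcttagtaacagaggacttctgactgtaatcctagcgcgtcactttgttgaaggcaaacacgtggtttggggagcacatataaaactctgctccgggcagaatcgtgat
Tgfbr2: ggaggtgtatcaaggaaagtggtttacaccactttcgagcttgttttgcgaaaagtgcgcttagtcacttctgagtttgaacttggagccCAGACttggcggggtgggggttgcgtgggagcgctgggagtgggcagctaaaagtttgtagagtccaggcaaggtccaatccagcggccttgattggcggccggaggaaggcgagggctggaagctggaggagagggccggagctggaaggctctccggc
Postn: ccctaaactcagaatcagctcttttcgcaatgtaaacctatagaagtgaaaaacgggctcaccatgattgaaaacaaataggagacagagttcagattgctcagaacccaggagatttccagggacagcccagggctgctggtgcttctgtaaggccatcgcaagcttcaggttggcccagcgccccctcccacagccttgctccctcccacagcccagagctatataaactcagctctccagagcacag
The Tgfb2 window held the element at 2 places and the Tgfbr2 window at 1, and the Tgfb1 window and this Postn window held it at 0. The window before the earlier Postn start, not printed here, held it at 1. It is a common string: 42.2% of 32851 such mouse windows held it, and 11.5% held it at 2 or more places. The palindrome GTCTAGAC, in 0.167% of windows, and the AP-1 element TGANTCA, in 6.75%, were searched on both strands and were in none of the windows of the 6 members that the table covers. The Tgfb1 window was 75.2% G and C, against a median of 52.4% over all windows. A match describes letters in a C57BL/6J reference and not a bound site, and the mice were BALB/c.

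The summed counts per library ran from 14658645 to 19609878, being 17149506 to 19609878 in control, 16915191 to 17988104 in IMQ and 14658645 to 16743869 in LYS-High. Counts scaled to library size (CPM, with TMM factors over the 9 libraries) are used here to set groups side by side. The deposited FPKM, which divides by gene length, is used to set genes side by side. The tissue was whole skin, and markers of every cell type examined were present in it, although the summed hair follicle markers fell from 1616–3451 CPM in control to 1.76–3.52 in IMQ and 2.71–5.16 in LYS-High libraries. Summed keratinocyte markers were 4606–7709 CPM in control, 34340–46808 in IMQ and 15095–27190 in LYS-High, and neutrophil markers were 26.7–52.7, 10132–13340 and 2731–7887. Within the neutrophil sum, mean S100a8 went from 15.2 CPM in control to 11936 in IMQ. Cxcr2 went from 4.01 to 111 CPM and Csf3r from 17.2 to 91.7, and Ly6g did not pass the count filter. Between IMQ and LYS-High skin these sums followed single genes, of which edgeR called none: Krt1 and Krt10 were lower with LYS (log2 -1.45 and -1.62) while Krt5 and Krt14 overlapped (log2 -0.195 and -0.21), and S100a8, nearly all of the neutrophil sum, was lower (log2 -0.97) while Cxcr2 overlapped (log2 -0.66) and Csf3r overlapped with a higher mean (log2 0.92). Summed fibroblast markers went the other way, at 13906–18005, 2191–6867 and 5548–11358 CPM. In such bulk samples, fewer cells of a type and less RNA per cell cannot be told apart. Nothing in the labels ties a library to a named mouse, so the p-values measure the spread between these libraries only.

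By the GENCODE M21 annotation of GRCm38, the 10 genes are protein coding. The ligand genes lie at chr7:25687002-25705077 (Tgfb1, plus strand), chr1:186622792-186705989 (Tgfb2, minus strand) and chr12:86056745-86079041 (Tgfb3, minus strand). The receptor genes lie at chr4:47353222-47414931 (Tgfbr1, plus), chr9:116084293-116175360 (Tgfbr2, minus) and chr5:107106570-107289629 (Tgfbr3, minus). Smad3 lies at chr9:63646767-63757994 on the minus strand, Postn at chr3:54361109-54391037 on the plus strand, and Smad2 and Smad7 on chromosome 18. For each of the 10, the length behind its FPKM equalled its summed exon length. Exons of other genes overlapped 12.4% of the exon length of Tgfb3, 4.54% of that of Tgfbr3 and 2.14% of that of Tgfb2, and the overlapping genes averaged at most 0.117 CPM. Whether reads were counted by strand is not given in the sources used here. The smallest count of any member in any library was 52, for Tgfb3 in IMQ 3.

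Per unit of length, Postn was the most abundant of the 10 RNAs in control skin, with a mean of 115 FPKM (109–123 over the 3 libraries). Postn encodes periostin, a matrix protein that fibroblasts secrete under TGF-beta. Tgfbr2 followed at 46.6 FPKM (43.1–49.1), Tgfbr3 at 24.5 (22.0–26.9) and Tgfb1 at 14.5 (13.2–16.8), with no overlap between any of these neighbours. Smad3 at 9.65 FPKM, Tgfbr1 at 9.42, Smad2 at 7.54 and Tgfb3 at 6.70 overlapped in turn. Tgfb2 at 3.90 was below Tgfb3 without overlap, and Tgfb2 overlapped Smad7 at 3.28. In IMQ skin more neighbours overlapped, as Postn at 19.98 FPKM (11.8–34.8), Tgfbr2 at 13.1 (10.5–18.05) and Tgfb1 at 10.1 (9.23–11.1) overlapped in turn. Smad3, the fifth most abundant in control, was the eighth there at 2.35 FPKM (1.67–3.49), below Smad7 at 3.89 (3.80–4.03) with no overlap. Tgfb3 at 1.67 and Tgfb2 at 1.34 were last and overlapped. In LYS-High skin Postn at 64.5 FPKM (44.6–76.9), Tgfbr2 at 47.2 (27.3–61.3), Tgfb1 at 23.8 (18.5–28.5) and Tgfbr3 at 19.5 (10.5–25.8) overlapped in turn, and Tgfb2 was last at 3.01.

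Among the ligands, Tgfb1 kept the most even level between control and IMQ libraries. It stood at 74.1, 61.4 and 55.6 CPM in control libraries 1 to 3, at 61.3, 58.9 and 61.8 in IMQ, and at 95.6, 116 and 131 in LYS-High. The IMQ values lay inside the control range, and each LYS-High value lay above the 6 others. Tgfb2 was 15.8, 26.7 and 17.0 CPM in control, 15.1, 6.78 and 5.20 in IMQ, and 9.63, 19.1 and 20.7 in LYS-High. Its highest IMQ library came just under the lowest control library, and the LYS-High libraries spanned both groups. Tgfb3 was 20.5, 21.3 and 17.5 CPM in control, 7.71, 8.64 and 3.81 in IMQ, and 10.7, 12.2 and 20.9 in LYS-High. All IMQ values of Tgfb3 were below all others, and only LYS-High 3 reached the control range.

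The receptors fell into an unequal set. Tgfbr1, the type I kinase, was 54.6, 50.2 and 55.8 CPM in control, 46.1, 39.2 and 48.9 in IMQ, and 44.7, 52.9 and 50.3 in LYS-High. Its IMQ values were a little below the control values without overlap. Tgfbr2, the type II receptor that binds the ligand first, was 340, 364 and 295 CPM in control, 161, 110 and 106 in IMQ, and 229, 410 and 457 in LYS-High. Tgfbr3, the betaglycan co-receptor that presents ligand to it, was 140, 160 and 120 CPM in control, 61.5, 45.2 and 32.8 in IMQ, and 70.2, 137 and 154 in LYS-High. For both genes the IMQ libraries were the 3 lowest, LYS-High 1 was the lowest of its group, and the other LYS-High libraries were within or above the control range.

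The Smads also differed from each other. Smad2 stayed between 48.4 and 64.2 CPM in all libraries: 56.5, 51.8 and 64.2 in control, 51.7, 62.6 and 61.8 in IMQ, and 48.4, 48.9 and 48.9 in LYS-High. The LYS-High values were the 3 lowest, by a small margin. Smad3, the other receptor-activated Smad, was 47.7, 45.1 and 46.9 CPM in control, 21.1, 13.3 and 11.5 in IMQ, and 22.1, 30.1 and 34.6 in LYS-High. The 3 groups of Smad3 values did not overlap each other. The share of all genes that separate the 3 groups was not counted. Groups taken in pairs often did not overlap. This held for 70.0% of genes tested in IMQ against control, 38.9% in LYS-High against IMQ and 50.3% in LYS-High against control. Smad7, the inhibitory Smad, was 10.9, 11.2 and 16.5 CPM in control, 18.8, 22.0 and 22.6 in IMQ, and 20.5, 19.4 and 16.2 in LYS-High. Here the IMQ libraries were above all control libraries, and LYS-High 3 was below control 3. Postn, the target gene, was 939, 884 and 794 CPM in control, 331, 147 and 127 in IMQ, and 397, 594 and 609 in LYS-High, again 3 groups without overlap.

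**Figure D1:**
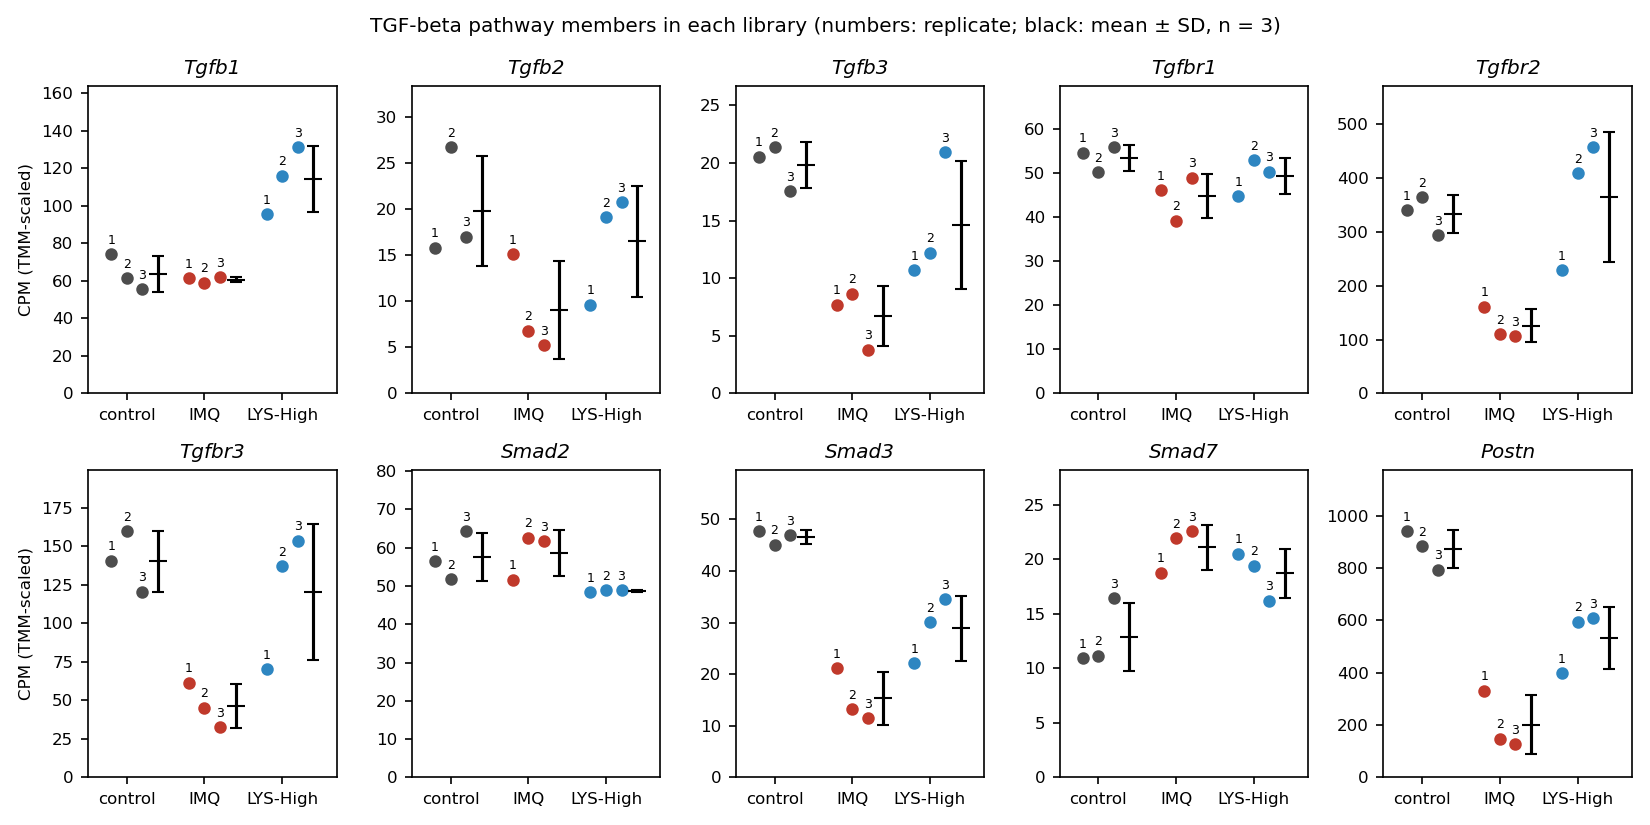
TMM-scaled CPM (linear axis from 0, a different scale for each gene) of the 10 genes in each of the 9 libraries, with the replicate number above each point and the group mean ± SD (n = 3) in black. Smad3 and Postn separate the 3 groups completely, and the share of all genes that do so was not counted. Tgfb1 is higher in the 3 LYS-High libraries than in the other libraries, and Smad2 stays between 48.4 and 64.2 CPM.

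The first comparison asked how IMQ alone changed the pathway. Of the 10 genes, 6 fell and 1 rose in IMQ against control skin, by edgeR (called here when the Benjamini-Hochberg adjusted p was under 0.05 with a log2 fold change beyond 0.58 either way). In the same comparison 51.0% of the 15976 genes tested were called, 24.1% higher and 26.9% lower, so that a call by itself is common. The median log2 fold change of the 10 genes was -1.27, against -0.06 over all genes tested. CPM did not overlap between the groups for 8 of the 10, 7 lower and 1 higher, and for 70.0% of all genes tested.

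Postn fell most, from 873 ± 73.4 to 202 ± 112 CPM (mean ± SD, n = 3 each), a log2 fold change of -2.12 ± 0.36 (SE) with an edgeR adjusted p of 0.0014. Smad3 fell 3.05-fold, from 46.6 ± 1.31 to 15.3 ± 5.13 CPM (log2 -1.61 ± 0.22, edgeR adjusted p = 5.0e-04). The 2 more abundant receptors fell by similar amounts, Tgfbr3 by 3.03-fold (log2 -1.60 ± 0.23, edgeR adjusted p = 5.8e-04) and Tgfbr2 by 2.65-fold (log2 -1.41 ± 0.19, edgeR adjusted p = 4.8e-04). Tgfbr1 moved in the same direction by less, from 53.5 ± 2.97 to 44.7 ± 5.02 CPM, and was not called (log2 -0.27 ± 0.12, edgeR adjusted p = 0.0966). With scaling by library totals alone, Tgfbr1 had a log2 fold change of -0.71 and was called, and the median of all genes then moved from -0.06 to -0.51, so that the log2 fold change of Tgfbr1 less that median was -0.20 under both scalings.

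Tgfb3 fell 2.96-fold (log2 -1.56 ± 0.28, edgeR adjusted p = 0.0017). Tgfb2 fell from 19.8 ± 5.95 to 9.01 ± 5.30 CPM (log2 -1.13 ± 0.40, edgeR adjusted p = 0.0367), a call that was lost when any library except IMQ 1 was left out: the edgeR adjusted p was then 0.0509, 0.127 and 0.0555 without control 1, 2 and 3, and 0.117 and 0.0866 without IMQ 2 and 3. Tgfb1 did not pass the test, with 63.7 ± 9.45 CPM in control and 60.6 ± 1.53 in IMQ (log2 -0.08 ± 0.13, edgeR adjusted p = 0.610), a direction that turned without control 1 (log2 0.03). Smad2 did not either (log2 0.02 ± 0.13, edgeR adjusted p = 0.908), with a sign that turned with library totals only (log2 -0.44). Smad7 rose 1.63-fold, from 12.9 ± 3.13 to 21.1 ± 2.04 CPM (log2 0.70 ± 0.20, edgeR adjusted p = 0.0149). The call on Smad7 was lost without control 1 (adjusted p = 0.0609, edgeR) and without control 2 (adjusted p = 0.0548, edgeR), and also with library totals only, where its log2 fold change of 0.245 was set against the all-gene median of -0.51. It was lost as well by limma in all 3 settings (log2 0.21, 0.27 and 0.21, adjusted p = 0.263, 0.259 and 0.383) and at an absolute log2 fold change over 1.

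**Figure D2:**
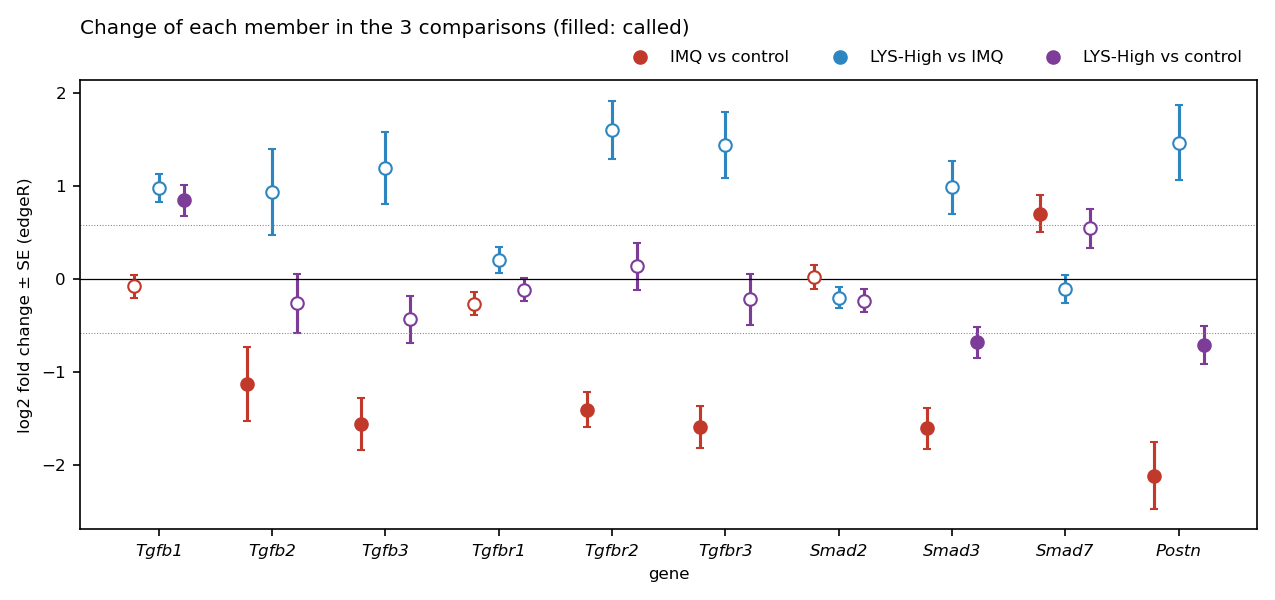
edgeR log2 fold change ± SE of each gene in IMQ vs control (red), LYS-High vs IMQ (blue) and LYS-High vs control (purple), where filled points passed an adjusted p of 0.05 and the dotted lines mark an absolute log2 fold change of 0.58. Of the red points 7 are filled, none of the blue and 3 of the purple.

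The second comparison asked what LYS added on IMQ-treated skin. The means of 8 of the 10 genes were higher with LYS, and the 6 with the clearest separation were Tgfb1, Tgfb3, Tgfbr2, Tgfbr3, Smad3 and Postn, whose 3 LYS-High libraries were each above the 3 IMQ libraries. For 16.8% of the 15460 genes tested the LYS-High libraries were likewise higher without overlap, and for 38.9% they did not overlap in either direction. By edgeR none of the 10 was called, nor was any gene of the table (0.00% called, smallest adjusted p 0.0591 over all genes). The study itself, at the same thresholds, reported genes changed in both directions in this comparison. At an unadjusted edgeR p under 0.05, 6 of the 10 were higher and none lower, against 35.2% of all genes in either direction and 19.3% higher. DESeq2 called these 6 genes higher, with 22.8% of the genes that it tested called and 13.3% called higher. The median log2 fold change of the 10 was 0.98, against 0.04 over all genes. The 3 IMQ libraries are shared with the first comparison.

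Tgfbr2 had the largest difference, from 126 ± 30.7 CPM in IMQ to 365 ± 120 in LYS-High (log2 1.61 ± 0.31, edgeR adjusted p = 0.0591, DESeq2 adjusted p = 8.8e-05). Postn (log2 1.47 ± 0.40, edgeR adjusted p = 0.0654) and Tgfbr3 (log2 1.44 ± 0.35, edgeR adjusted p = 0.0606) came next. Tgfb3 had 6.72 ± 2.56 and 14.6 ± 5.53 CPM (log2 1.19 ± 0.39, edgeR adjusted p = 0.0851), and Smad3 had 15.3 ± 5.13 and 28.9 ± 6.31 CPM (log2 0.99 ± 0.28, edgeR adjusted p = 0.0707). Tgfb1 had the smallest standard error of the 6, with 60.6 ± 1.53 CPM in IMQ and 114 ± 17.8 in LYS-High (log2 0.98 ± 0.15, edgeR adjusted p = 0.0591, DESeq2 adjusted p = 5.5e-05). Tgfb2 was as far apart in fold but overlapped between the groups (log2 0.94 ± 0.47, edgeR adjusted p = 0.195).

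Tgfbr1 (log2 0.21 ± 0.14, edgeR adjusted p = 0.315), Smad7 (log2 -0.11 ± 0.15, edgeR adjusted p = 0.622) and Smad2 (log2 -0.20 ± 0.11, edgeR adjusted p = 0.243) showed no call under any setting. The sign turned to positive for Smad2 (log2 0.06) and for Smad7 (log2 0.15) with library totals only, where the median of all genes was 0.29. Whether edgeR called the 6 genes, or any gene, depended on single libraries. Without LYS-High 1 all 6 were called higher (14.9% of genes called higher), and without IMQ 1 5 of them were (6.80% called higher). Leaving out IMQ 2, IMQ 3, LYS-High 2 or LYS-High 3 gave 0 of 10, with 0.00% of all genes called in each case.

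The third comparison set LYS-High against control skin, which differ by both the cream and LYS. Here 3 of the 10 genes were called by edgeR, 1 higher and 2 lower, with 28.0% of the 16003 genes tested called, 15.1% higher and 12.9% lower. Tgfb1 was higher, at 114 ± 17.8 against 63.7 ± 9.45 CPM (log2 0.85 ± 0.17, edgeR adjusted p = 0.0086). Smad3 (log2 -0.68 ± 0.17, edgeR adjusted p = 0.0204) and Postn (log2 -0.71 ± 0.21, edgeR adjusted p = 0.0345) were lower. Their CPM did not overlap between the groups, nor did those of Smad2, and the share of all genes tested without overlap was 50.3%. The other genes had log2 fold changes between -0.44 for Tgfb3 and 0.55 for Smad7, with edgeR adjusted p from 0.0835 to 0.714.

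The call on Tgfb1 held without each library in turn. Of all 16 alternatives, 15 kept Tgfb1 past both thresholds of the main test. The call on Smad3 was lost without control 1, 2 or 3 (edgeR adjusted p = 0.0892, 0.0685 and 0.0588). It was also lost without LYS-High 2 (edgeR adjusted p = 0.0643), and leaving out LYS-High 1 took its log2 fold change to -0.515. That on Postn was lost without the same libraries (edgeR adjusted p = 0.128, 0.101 and 0.0613 for the control libraries and 0.0768 for LYS-High 2), and leaving out LYS-High 1 took it to a log2 fold change of -0.525. Without LYS-High 3, Tgfb3 was called lower (log2 -0.78, edgeR adjusted p = 0.0158), and without control 3, Smad7 was called higher (log2 0.77, edgeR adjusted p = 0.0370). Side by side, and with groups shared between the comparisons, Tgfb1 had log2 values of -0.08 for IMQ against control, 0.98 for LYS-High against IMQ and 0.85 for LYS-High against control, whereas Tgfbr2 had -1.41, 1.61 and 0.14, and Smad3 had -1.61, 0.99 and -0.68.

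Within a library, the make-up of the ligand RNA can be read from FPKM without any scaling between libraries. Tgfb1 made up 62.6, 52.8 and 57.6% of the summed FPKM of the 3 ligands in control, 71.3, 75.8 and 85.8% in IMQ, and 79.7, 76.9 and 72.7% in LYS-High. Every library from cream-treated skin was thus above every control library, by a mean of 20.02 percentage points in IMQ and 18.8 in LYS-High. Tgfb3 made up 26.7 ± 0.794% in control (mean ± SD, n = 3), 12.6 ± 4.39% in IMQ and 14.2 ± 2.75% in LYS-High, with neither cream-treated group overlapping control. Both differences had an exact two-sided permutation p of 0.1, the smallest that 3 against 3 libraries allow, and 0.15 after adjustment over 15 tests. The IMQ and LYS-High libraries overlapped for all 3 ligand shares, with mean differences of -1.21 points for Tgfb1, -0.381 for Tgfb2 and 1.60 for Tgfb3 (exact permutation p = 0.9, 0.9 and 0.7).

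The balance of the receptor-activated Smads separated all 3 groups. Smad3 made up 57.2, 57.98 and 53.7% of the summed Smad2 and Smad3 FPKM in control, 39.3, 25.1 and 22.8% in IMQ, and 42.0, 49.4 and 52.8% in LYS-High. No group overlapped another, and each of the 3 differences (-27.2 points for IMQ against control, 19.0 for LYS-High against IMQ and -8.20 for LYS-High against control) had an exact permutation p of 0.1, adjusted 0.15. Tgfbr3 made up 30.4 ± 1.33% of the summed receptor FPKM in control, 23.9 ± 3.73% in IMQ and 25.7 ± 1.85% in LYS-High. With an exact permutation p of 0.1 against control for both and 0.5 between them, the cream-treated groups were below control without overlap and overlapped each other.

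**Figure D3:**
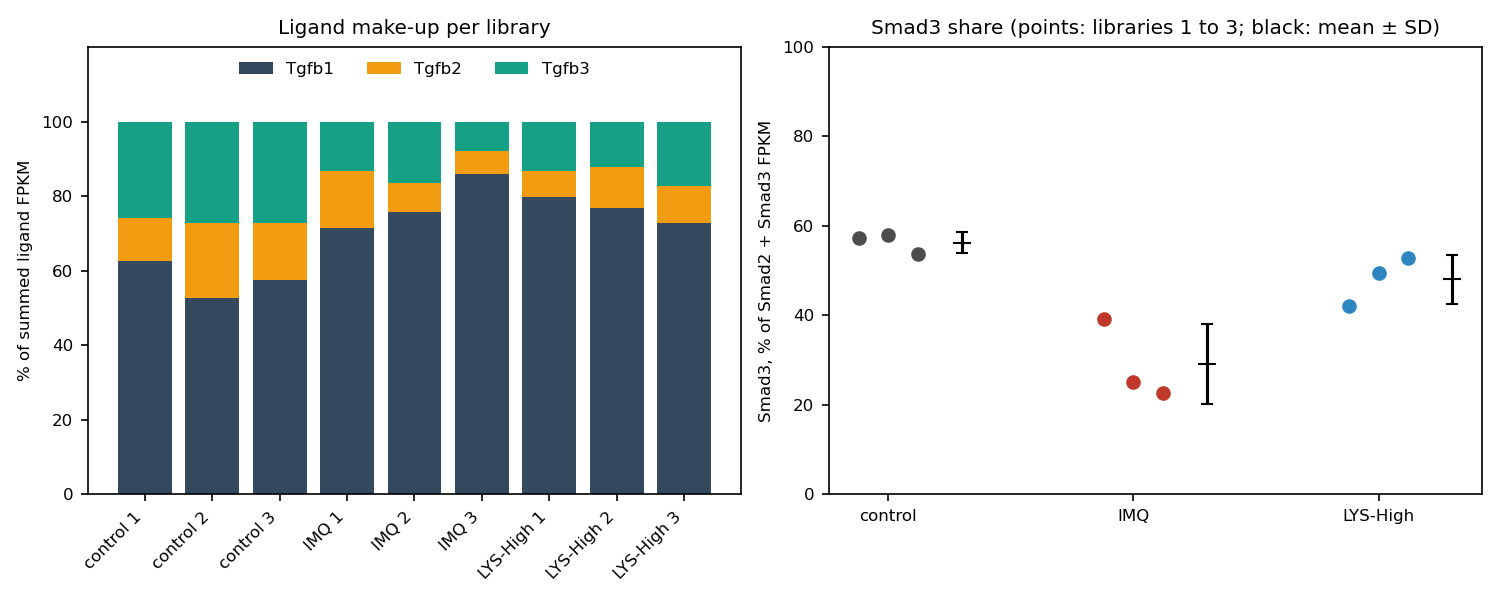
Left, percent of the summed FPKM of the 3 ligand genes taken by each ligand in each library. Right, Smad3 as percent of the summed Smad2 and Smad3 FPKM, with the 3 libraries of each group as points and the mean ± SD (n = 3) in black, where the 3 groups do not overlap (53.7–57.98% in control, 22.8–39.3% in IMQ and 42.0–52.8% in LYS-High).

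The libraries of a group were not equal. Of the 6 genes called lower in IMQ skin, IMQ 1 had the highest CPM of its group for 5 and IMQ 3 the lowest for 6, and LYS-High 1 had the lowest for 6 and LYS-High 3 the highest for 6. The summed CPM of 6 fibroblast markers (Pdgfra, Dpt, Lum, Dcn, Col1a1 and Col1a2) was ordered in the same way, at 41.8, 18.9 and 13.3% of the control mean in IMQ 1 to 3 and 33.8, 56.8 and 69.1% in LYS-High 1 to 3. Col1a1 and Col1a2, which are also on the list of TGF-beta targets, made up 73.0–86.5% of that sum. Without them, a choice made after the values were seen, the sum of the other 4 markers was at 44.9, 27.3 and 21.6% in IMQ and 53.7, 83.9 and 95.4% in LYS-High, in the same order. Postn was at 37.9, 16.9 and 14.6% and at 45.5, 68.1 and 69.8%. Smad3 was at 45.4, 28.5 and 24.7% and at 47.5, 64.6 and 74.2%. Tgfbr2 was at 48.5, 33.1 and 31.9% in IMQ, above both fibroblast sums in each library, and at 68.8, 123 and 137% in LYS-High. This order of libraries was not particular to the fibroblast markers. The sums of endothelial, macrophage, adipocyte, and smooth muscle and pericyte markers, given below, had it too. The share of all genes with this order was not counted. Over 16392 genes, deviations from the group mean correlated from -0.46 (IMQ 1 with LYS-High 1) to 0.47 (IMQ 3 with LYS-High 1).

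All 6 fibroblast markers were called lower in IMQ against control skin by edgeR, where 26.9% of all genes were, with a median log2 fold change of -1.97. In LYS-High against control, where 12.9% of all genes were called lower, Col1a1, Col1a2 and Dpt were called lower. Pdgfra (log2 0.15), Lum (log2 -0.21) and Dcn (log2 -0.23) were not called. Endothelial markers summed to 68.1, 40.2 and 33.5% of the control mean in IMQ 1 to 3 and to 65.8, 111 and 127% in LYS-High 1 to 3, with 5 of 6 called lower in IMQ skin. Macrophage markers summed to 70.4, 52.9 and 51.3% and to 84.3, 181 and 206%, while Tgfb1 was at 96.2, 92.5 and 96.9% and at 150, 182 and 206%. Of the 4 macrophage markers, only Mrc1 was called lower by edgeR in IMQ skin, while Adgre1, Csf1r and Cd68 overlapped control. Adipocyte markers, at 19.5, 7.31 and 4.004% of the control mean in IMQ 1 to 3 and 18.02, 31.2 and 50.2% in LYS-High 1 to 3, had lower sums in cream-treated skin. So did skeletal muscle markers, at 16.7–43.6% in IMQ and 41.6–87.7% in LYS-High. Smooth muscle and pericyte markers summed to 74.6, 44.6 and 29.3% in IMQ 1 to 3 and 62.9, 97.3 and 117% in LYS-High 1 to 3. Of these, 1 of 4 was called lower by edgeR in IMQ skin, near the share of all genes (26.9%). T cell markers summed to 178–227% of the control mean in IMQ and 276–382% in LYS-High. The part of these cell types in the changes of the 10 genes was not tested.

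**Figure D4:**
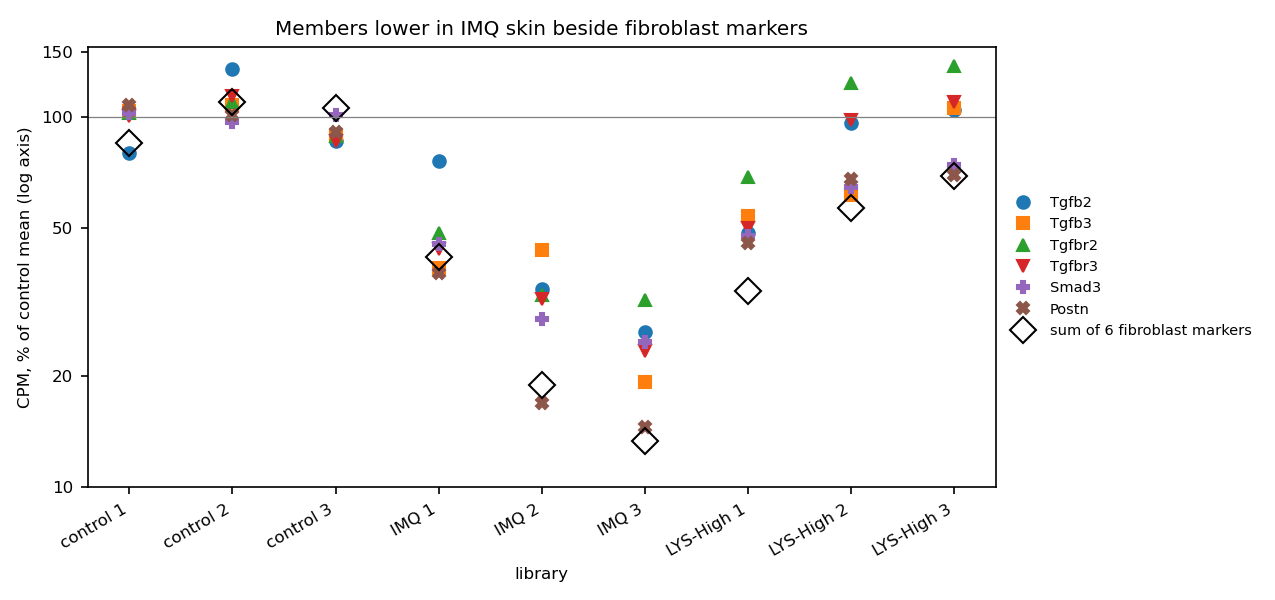
CPM of the 6 genes called lower in IMQ skin (coloured symbols) and summed CPM of 6 fibroblast markers (open diamonds) in each library, as percent of the control mean on a log axis. In IMQ the fibroblast sum runs from 41.8% in library 1 to 13.3% in library 3, and in LYS-High from 33.8% in library 1 to 69.1% in library 3. Endothelial, macrophage, adipocyte, and smooth muscle and pericyte sums, not drawn, had the same order of libraries.

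Upstream of the receptors, 11 genes for the storage and release of latent TGF-beta held 4 called higher and 3 lower by edgeR in IMQ skin, where 24.1% of all genes were called higher and 26.9% lower, with a median log2 fold change of 0.29 (-0.06 over all genes). Itgb8, an integrin subunit that activates latent TGF-beta, rose from 15.98 ± 4.21 to 95.6 ± 20.1 CPM (log2 2.57, edgeR adjusted p = 7.8e-05). Thbs1, which encodes the activator thrombospondin, rose from 55.4 ± 10.1 to 187 ± 39.7 CPM (log2 1.74, edgeR adjusted p = 2.1e-04), and Furin, the protease that cuts the precursor, rose from 133 ± 4.95 to 336 ± 53.5 CPM (log2 1.33). Of the latent TGF-beta binding proteins, Ltbp3 fell from 106 ± 8.44 to 35.2 ± 9.82 CPM (log2 -1.59) and Ltbp4 from 174 ± 8.74 to 89.0 ± 28.1 CPM (log2 -0.98). Lrrc32, which holds latent TGF-beta on the surface of regulatory T cells and platelets, was 20.9 ± 4.20 CPM in control, 48.9 ± 5.37 in IMQ and 70.2 ± 10.4 in LYS-High. Nrros, which does so on macrophages and microglia, was 33.0 ± 5.40, 33.8 ± 5.31 and 81.0 ± 24.4 CPM.

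Against control, LYS-High skin had 6 of these 11 genes higher and 1 lower by edgeR (15.1% and 12.9% of all genes), with a median log2 fold change of 0.64 (-0.01 over all genes). Lrrc32 (log2 1.76) and Nrros (log2 1.30) were among the 6, with Itgb8, Thbs1, Furin and, named after its value was seen, Ltbp2. Against IMQ, Thbs1 had a log2 fold change of -1.05 and Nrros of 1.34, each with an edgeR adjusted p of 0.0591, and none of the 11 was called.

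The list of other receptors and decoys held 4 genes, and all 4 were called lower by edgeR in IMQ skin, where 26.9% of all genes were. Receptors of the BMP and activin list were counted apart. Among those, Acvr1b was called higher (log2 1.42) and Acvr2b lower (log2 -0.62). Eng, the endothelial co-receptor endoglin, went from 121 ± 15.1 to 65.0 ± 26.7 CPM (log2 -0.90) and its partner kinase Acvrl1 from 42.3 ± 11.2 to 18.7 ± 4.85 (log2 -1.18). In LYS-High skin they stood at 148 ± 33.5 and 45.2 ± 15.8 CPM and were not called against control. Bambi, a decoy receptor without a kinase, went from 26.9 ± 6.26 to 5.93 ± 1.87 CPM (log2 -2.19, edgeR adjusted p = 2.9e-04). It stood at 5.65 ± 0.903 CPM in LYS-High, still lower than control (log2 -2.24, edgeR adjusted p = 9.7e-04), with a log2 fold change of -0.002 against IMQ. Tmem100, an endothelial membrane protein gene of this pathway, went from 20.7 ± 4.81 to 4.38 ± 1.54 CPM and stood at 12.2 ± 6.10 in LYS-High.

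Among 16 partners and regulators of the Smads, 4 were called higher and 3 lower in IMQ skin, no larger a share than the 51.0% called over all genes, with a median log2 fold change of 0.08. Fkbp1a, whose product keeps the type I receptor inactive, fell from 249 ± 17.8 to 86.8 ± 13.4 CPM (log2 -1.53, edgeR adjusted p = 9.3e-05) and was 134 ± 9.70 in LYS-High, lower than control (log2 -0.89). Skil, a repressor of Smad-driven transcription, rose from 38.5 ± 4.49 to 107 ± 22.8 CPM (log2 1.47) and was 74.2 ± 11.2 in LYS-High. Its relative Ski was not called, at 164 ± 5.53, 170 ± 15.6 and 194 ± 12.8 CPM. Zfyve9, an anchor that brings SMAD2 and SMAD3 to the receptor, rose from 48.5 ± 4.54 to 101 ± 18.03 CPM, and the ubiquitin ligase gene Nedd4l fell from 22.8 ± 6.17 to 10.4 ± 2.60. The phosphatase gene Ppm1a and Strap were not called in any comparison. In LYS-High against control, 1 of the 16 was higher and 1 lower, against 28.0% of all genes called.

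Of 14 further TGF-beta targets, 13 passed the count filter in IMQ against control skin (Tagln did not), 10 were called lower and 3 higher by edgeR (26.9% and 24.1% of all genes), and the median log2 fold change was -1.86. Matrix genes were among those that fell: Col3a1 from 8988 ± 1050 to 2207 ± 1433 CPM, Sparc from 4323 ± 735 to 834 ± 353, and Fn1, for fibronectin, from 643 ± 9.17 to 153 ± 51.8. Col1a1 and Col1a2, which fell as well (log2 -2.07 and -2.14), are also on the list of fibroblast markers.

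Of the 3 targets that rose, named here after their values were seen, Cdkn2b and Cdkn1a encode inhibitors of the cell cycle and Tgfbi encodes a secreted adhesion protein. Cdkn2b went from 10.5 ± 0.900 to 28.5 ± 6.74 CPM (log2 1.42, edgeR adjusted p = 4.7e-04) and was 12.7 ± 4.84 in LYS-High. In LYS-High against IMQ none of the 13 tested was called by edgeR, with a median log2 fold change of 1.12 (0.04 over all genes). DESeq2 called 8 higher and 1 lower (13.3% and 9.49% of all genes). Against control, 1 of 14 was called higher and 3 lower in LYS-High skin (15.1% and 12.9% of all genes). Timp1, an inhibitor of matrix proteases, was 11.4 ± 0.550 CPM in control, 6.53 ± 2.31 in IMQ and 20.4 ± 7.96 in LYS-High (log2 1.69 against IMQ, edgeR adjusted p = 0.0591).

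**Figure D5:**
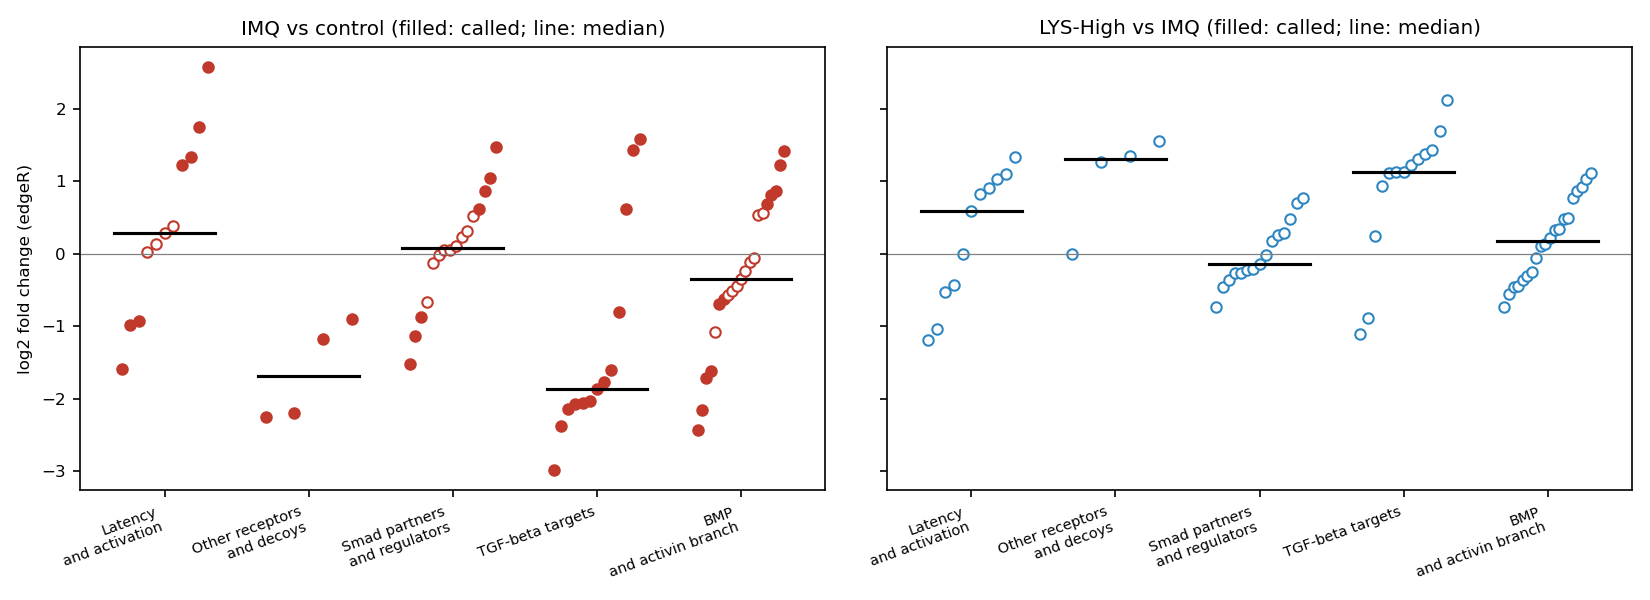
edgeR log2 fold change of each tested gene of 5 lists of TGF-beta family genes in IMQ vs control (left) and LYS-High vs IMQ (right), with filled points called and black lines at the list medians. Left, the medians are -1.68 for the other receptors and decoys and -1.86 for the targets, and right, no point is filled.

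The genes whose pattern over the 9 libraries was most like that of a member were found by the smallest root mean square difference of centred log2(CPM + 1), among 14764 genes with a mean CPM of at least 1. Those nearest to Postn were Igsf10 (0.11), Col3a1 (0.15) and Pxdn (0.16). Nearest to Tgfbr3 were Dennd2a (0.07), Dcn (0.08) and Mrgprb1 (0.09), and nearest to Tgfbr2 were Steap3 (0.10), Tmem106a (0.12) and Fcgrt (0.12). Smad3 had Eml1 (0.07), Ltbp3 (0.08) and Utrn (0.11), of which Ltbp3 belongs to the latency list. For Tgfb1 they were Wdfy4 (0.09), Sipa1 (0.09) and Plekho1 (0.09), for Tgfb2 Msrb2 (0.12), Cldn15 (0.14) and Ptprm (0.16), and for Tgfb3 Fmod (0.10), Mpp3 (0.14) and Cytl1 (0.14). Tgfbr1 (Mettl17, Tent2 and Sppl2a), Smad2 (Fyttd1, Pafah1b1 and Cstf2) and Smad7 (Fbxl18, Nol9 and Zfp280b) had neighbours at 0.06 to 0.08. The member nearest to another member was Tgfbr3 for Tgfbr2, at 0.18 and at rank 36. These points share libraries and depth, and the distances are descriptions without a test.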

How the data were processed

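Skin RNA was prepared with TRIzol and the NEBNext Ultra kit for Illumina sequencing. For 29205 genes and each library, the authors deposited whole-number read counts without normalization. The submitters' processing notes name HISAT2, HTSeq 0.13.5 and GRCm38. The deposited FPKM values, from the same authors, equalled the count divided by gene length and by the library's summed counts, and the length was the GENCODE M21 exon length for 98.4% of 29107 genes found there. No column was left without a sample.

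Counts were tested by the quasi-likelihood test of edgeR 4.0.16 (R 4.3.3) after filterByExpr and TMM scaling, and p-values were adjusted over all genes tested after Benjamini and Hochberg. Each fit held the 6 libraries compared, without a replicate block, and the thresholds were those of the study, 0.05 for the adjusted p and 0.58 for the size of the log2 fold change. Shares within a library were compared by exact two-sided permutation in SciPy 1.17.1, and figures were drawn with matplotlib 3.10.9. Upstream sequences came from RefSeq, GRCm38.p6, which covered 6 of the 10 genes. Scripts were tested on simulated data. Replicates of a group differed by more than sampling noise, with a chi-square per degree of freedom of 16.9 to 100.

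All 10 genes are named. Of each pathway list the text names up to 4 genes with the highest mean CPM, up to 4 with the largest change among those called in IMQ vs control and up to 4 with the smallest p in LYS-High vs IMQ, with the exceptions stated. A gene of the target list is counted with its list but not reported here by itself. The members and the lists were chosen with earlier results of these data known. Alternatives changed the tool (DESeq2 1.42.0, or limma 3.58.1 on log2(FPKM + 1), with a pseudocount of 0.1 and without the minimum of 1 FPKM), the scaling, the count filter, the libraries in the fit, the fold threshold and the replicate block, and left out each library in turn. The dose of LYS is not in the labels and is not given here.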

Additional observations from a re-analysis of the deposited data

How the results depend on the processing

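In IMQ against control skin, the 7 called genes were 5 to 7 in each of 16 alternatives, and those that changed were Tgfb2, Smad7 and Tgfbr1. Of all genes, 26.3% to 58.7% were called in these alternatives. In LYS-High against IMQ, where edgeR called 0, the members called were 6 with DESeq2, 6 without the count filter, 6 with all 9 libraries in 1 fit, and 0 to 6 when a library was left out, all higher. Of the 66 pathway genes, 0 were called there, against 24 with DESeq2 (22.8% of all genes) and 19 without the count filter (8.83%). They were 21 with all 9 libraries in 1 fit (18.5%) and 0 to 25 when a library was left out (0.00% to 26.8%). In LYS-High against control, the 3 members called became 0 at an absolute log2 fold change over 1 (18.2% of all genes called). With the replicate block 1 was left (19.5%), as Smad3 and Postn were lost (edgeR adjusted p = 0.0505 and 0.0939). When a library was left out, 1 to 4 were called (15.8% to 30.8%). The 19 pathway genes (28.0% of all genes were called) became 10 at a log2 fold change over 1 and 11 by limma without a filter (10.7%). They became 12 to 30 when a library was left out. The cause of these changes was not tested.

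Library totals only moved the median log2 fold change of all genes from -0.06 to -0.51 (IMQ vs control), 0.04 to 0.29 (LYS-High vs IMQ) and -0.01 to -0.15 (LYS-High vs control). Signs turned for small values. In IMQ vs control, Smad2 had -0.44 with library totals only, -0.013 without the count filter, and -0.37, -0.42 and -0.37 by limma with a pseudocount of 1, of 0.1 and without its filter. When a library was left out it ran from -0.055 to 0.119, and Tgfb1 ran from -0.166 to 0.032. In LYS-High vs IMQ the same settings of totals and limma gave Smad2 0.06, 0.049, 0.056 and 0.049, and Smad7 0.15, 0.12, 0.14 and 0.12. In LYS-High vs control, limma gave Tgfbr2 -0.056, -0.059 and -0.056. There, when a library was left out, Tgfbr2 ran from -0.051 to 0.393, Tgfb2 from -0.451 to 0.017 and Tgfbr3 from -0.425 to 0.065. The share differences of LYS-High less IMQ then ran from -4.37 to 2.86 points for Tgfb1, -2.09 to 2.39 for Tgfb2, -0.768 to 3.57 for Tgfb3 and -0.408 to 2.87 for Tgfbr3. Replicate numbers did not pair the libraries (correlations of same-numbered deviations from -0.460 to 0.200). With the replicate block 7, 0 and 1 members were called in the 3 comparisons, and 50.4%, 0.00% and 19.5% of all genes. With 3 libraries a group, single libraries carry much weight, and genes with few reads, such as Tgfb3 with 52 in 1 library, have the widest counting error.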

Other observations

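The BMP and activin branch of the same superfamily, which signals through other type I receptors, was measured with 21 genes, and in IMQ against control skin edgeR called 5 higher and 6 lower, close to the 51.0% called over all genes, with a median log2 fold change of -0.35. Bmp4, a ligand of the dermis and hair follicle, was 25.6 ± 2.72 CPM in control (mean ± SD, n = 3), 4.77 ± 0.393 in IMQ and 6.38 ± 2.23 in LYS-High, lower than control in both (log2 -2.43 and -1.998, edgeR adjusted p = 2.3e-05 and 0.0019). Id3, an early response gene of BMP signalling, fell from 84.7 ± 7.91 to 26.0 ± 5.86 CPM, and Fst, which encodes the activin antagonist follistatin, from 25.5 ± 2.55 to 8.25 ± 2.64. The family member Id1 went the other way, from 51.1 ± 5.36 to 119 ± 24.1 CPM (log2 1.22, edgeR adjusted p = 4.4e-04), as did Acvr1b, the activin type I receptor, from 52.3 ± 8.52 to 141 ± 16.8 CPM (log2 1.42, edgeR adjusted p = 1.7e-04). Grem1, which encodes a BMP antagonist, was 8.00 ± 0.773 CPM in control, 14.0 ± 5.95 in IMQ and 29.0 ± 3.13 in LYS-High, higher than control in both (log2 0.81 and 1.86, edgeR adjusted p = 0.0462 and 4.9e-04). In LYS-High against control 1 of the 21 was called higher and 4 lower, against 28.0% of all genes called. In LYS-High against IMQ none of the 20 tested was called by edgeR. At an unadjusted edgeR p under 0.05, 5 were higher and 4 lower (19.3% and 15.9% of all genes). DESeq2 called 4 higher (13.3% of all genes). The hair follicle markers, which were near 0 in cream-treated skin, were like Bmp4 lower than control in both cream-treated groups. Their part in the value of Bmp4 was not tested.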
